A study of Rattus norvegicus with 2 samples.

Results

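The mitochondrial ribosomal protein genes were taken as all genes whose symbol in the probe-to-gene table starts with Mrpl or Mrps followed by a digit, and 67 of the 16592 named genes met this rule. None of them differed by 1.5-fold between the arrays of a study of MEF2D, a transcription factor of muscle, in neonatal rat ventricular myocytes, the beating muscle cells of the newborn rat heart. Such differences were rare over all genes too (0.844% higher and 0.534% lower), so a count of 0 says little about these genes in particular. The median difference of the 67 genes was -0.01 on the log2 scale as deposited and 0.002 after each array was centred on its median, so it has no settled sign.

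By its labels, the array labelled Mef2d shRNA holds RNA of myocytes given an adenovirus with a short hairpin RNA (shRNA) against Mef2d. The array labelled lacZ shRNA is described there as RNA of myocytes given an adenovirus with an shRNA against lacZ, a bacterial gene used as the negative control. By the same labels, in both groups the cells came from pups 1 to 2 days old and had 24 hours of recovery in medium with 10% serum. They then had a low-serum medium with the supplement Nutridoma at 0.5x, and were collected 3 days after transduction. Strain, sex and genotype are not given in the labels. Each condition was measured on 1 array of pooled RNA. The design text gives 6 biological replicates per pool, while the extraction protocol gives 3 per condition. A single array per condition leaves no replicate error, so no difference below has a test, and precision is limited by the number of arrays. Cultures were measured in bulk, so fewer cells of a type and less RNA per cell cannot be told apart.

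Mitochondria keep their own ribosome, which translates the few proteins encoded by mitochondrial DNA, all of them parts of the respiratory chain and the ATP synthase. Its RNA comes from mitochondrial DNA, and its proteins come from nuclear genes, are made in the cytosol and are imported. Some of these proteins descend from the proteins of bacterial ribosomes, and others were added during the evolution of mitochondria. Heart muscle depends on this ribosome for its respiratory capacity, and in humans inherited defects of some of its proteins, among them MRPL3 and MRPL44, cause cardiomyopathy.

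Levels are log2 RMA values. For Mef2d itself these were 8.94 on the array labelled Mef2d shRNA and 8.22 on the array labelled lacZ shRNA, a difference of 0.71. The targeted transcript was thus 1.64-fold higher on the array labelled as its knockdown, which goes against the label, so every direction below holds only as far as the labels do. All 10 cardiomyocyte markers were measured, at levels between 8.56 and 12.79 on the array labelled Mef2d shRNA and between 9.02 and 12.82 on the array labelled lacZ shRNA. All 8 fibroblast markers were measured too, from 6.44 to 12.16 on the array labelled Mef2d shRNA and from 6.57 to 12.16 on the array labelled lacZ shRNA. The 5 smooth muscle and pericyte markers measured ran from 5.97 to 11.22 on the array labelled Mef2d shRNA and from 6.18 to 11.17 on the array labelled lacZ shRNA. Of the 5 endothelial markers measured, 4 lay below the level filter of 4.85. The summed linear levels of the cardiomyocyte markers were 31293 and 30541 on the arrays labelled Mef2d shRNA and lacZ shRNA. Those of the fibroblast markers were 15717 and 16073, and those of 5 macrophage and leukocyte markers 955 and 1116. Such sums follow the brightest genes. Of the cardiomyocyte markers 5 were higher on the array labelled Mef2d shRNA and 5 lower, from Myh6 (-0.46) to Myh7 (0.39). Fibroblast markers were higher for 2 and lower for 6, and macrophage and leukocyte markers for 1 and 4. The part of these cell types in the differences below was not tested.

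The promoters of the members were looked at first for sequence that they share. RefSeq promoter windows (build GRCr8, from 250 bases before to 50 bases after the annotated start) were found for 53 of the 67 members. The letters CCGGAAG, a core bound by ETS family factors such as GABP, stood on either strand in 17 of the 53 windows (32.1%), against 16.7% of the windows of 9606 array genes past the level filter and 9.22% of all 27457 genes in the table. The letters AAGATGGCG, a core bound by YY1, stood in 9 member windows (17.0%), against 3.63% of the array genes and 1.93% of all genes. The letters GCGCATGC, the core of the motif of nuclear respiratory factor 1 (NRF1), stood in 5 member windows (9.43%), against 4.85% and 2.66%. The TATA box letters TATAAA stood in 7 (13.2%), against 7.08% and 14.3%. The MEF2 motif was searched in its degenerate form and stood in 0 of the 53, against 1.57% of the array genes and 3.37% of all genes, and a count of 0 in 53 windows says only that these letters are not in these windows. The member windows had a median GC content of 55.7%, below the 61.0% of the array genes and above the 52.3% of all genes. Their median number of CpG dinucleotides was 18, against 21 for the array genes and 7 for all genes. A match of the degenerate MEF2 motif can contain the letters TATAAA, but 0 of the 53 member windows hold a MEF2 match. Apart from that, none of these motifs contains another. GCGCATGC can match both strands at one place, where the matches overlap.

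The stretches with the NRF1 core are shown because its 5 carriers all had a difference below 0 (-0.01 to -0.22), a pattern noticed after the values were seen. With each array centred on its median, Mrpl32 lay at 0.002 and the other 4 below 0. Capitals mark the core on either strand, and each stretch lies before the annotated start.
Mrpl17 (chr1:169575700-169575770, minus strand): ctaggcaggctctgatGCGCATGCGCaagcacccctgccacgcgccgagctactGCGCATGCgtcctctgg
Mrpl22 (chr10:42845865-42845904, plus strand): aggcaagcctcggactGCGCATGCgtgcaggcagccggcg
Mrpl32 (chr17:55260573-55260631, plus strand): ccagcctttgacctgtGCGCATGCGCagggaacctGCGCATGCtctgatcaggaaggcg
Mrpl44 (chr9:88554902-88554943, plus strand): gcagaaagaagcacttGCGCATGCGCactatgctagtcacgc
Mrps18b (chr20:2842970-2843005, plus strand): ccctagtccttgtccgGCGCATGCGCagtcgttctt

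The median difference was -0.07 in the 5 members with the NRF1 core and 0.00 in the 48 without it. It was -0.05 in the 17 members with the ETS core, of which 6 lay above 0, and 0.02 in the 36 without it, of which 19 did. The median was -0.01 both in the 9 carriers of the YY1 core and in the 44 others. These are descriptions of 2 arrays, and a match of letters is not a bound site. Among the regulators that use such motifs, Nrf1 had levels of 8.11 on the array labelled Mef2d shRNA and 8.10 on the array labelled lacZ shRNA. Gabpa, the DNA-binding subunit of GABP, had 8.28 and 8.43 on the same arrays, and its partner Gabpb1 had 5.97 and 6.24. Yy1 had levels of 8.74 on the array labelled Mef2d shRNA and 8.90 on the array labelled lacZ shRNA.

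The 110 bases before the start of the members at the ends of the range in each subunit are shown for comparison. None of the 5 motifs searched lies within these stretches, so none carries capitals. At or after the start, which is not shown, the window of Mrpl20 holds an ETS core and that of Mrps10 an ETS and a YY1 core.
Mrpl55 (highest in the large subunit, chr10:44488143-44488252, plus strand): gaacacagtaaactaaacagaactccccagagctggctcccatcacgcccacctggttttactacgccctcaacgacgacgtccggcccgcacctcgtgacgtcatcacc
Mrpl20 (lowest in the large subunit, chr5:171691088-171691197, plus strand): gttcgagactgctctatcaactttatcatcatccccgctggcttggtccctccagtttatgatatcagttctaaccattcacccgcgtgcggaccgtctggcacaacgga
Mrps17 (highest in the small subunit, chr12:32587813-32587922, minus strand): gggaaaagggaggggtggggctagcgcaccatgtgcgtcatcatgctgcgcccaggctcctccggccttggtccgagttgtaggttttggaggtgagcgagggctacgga
Mrps10 (lowest in the small subunit, chr9:21122454-21122563, minus strand): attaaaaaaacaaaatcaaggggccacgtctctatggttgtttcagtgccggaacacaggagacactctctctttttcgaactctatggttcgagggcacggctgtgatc

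All 67 members passed the level filter, which kept the 11614 named genes with a mean level of at least 4.85 over both arrays. The members' levels ran from 6.31 to 11.27, and their median was 8.26 on the array labelled Mef2d shRNA and 8.25 on the array labelled lacZ shRNA. Of the 67 members, 0 were at least 1.5-fold higher on the array labelled Mef2d shRNA, where 0.844% of all genes past the filter were. Likewise 0 were at least 1.5-fold lower, where 0.534% of all genes were. At a threshold of 1.2-fold 2 members were higher, Mrpl55 and Mrpl15, against 8.15% of all genes, and 2 were lower, Mrps10 and Mrps36, against 6.91% of all genes. With 33 members above 0 and 34 below, the direction was as evenly split as over all genes, of which 48.2% lay above 0. The median difference over all genes was -0.01 as well.

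**Figure D1:**
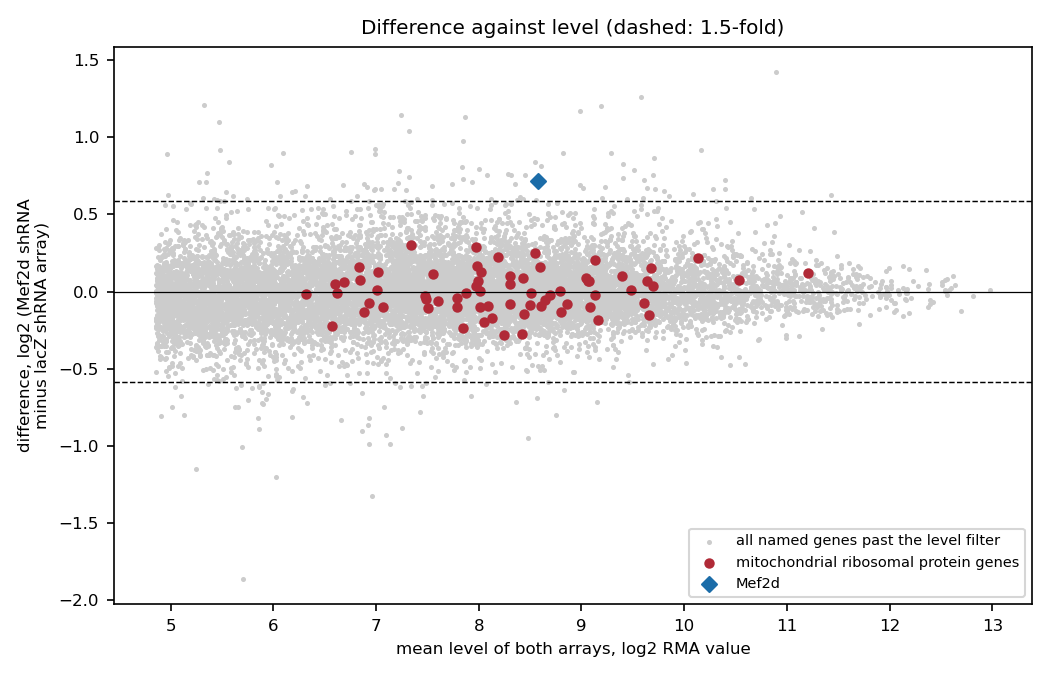
Difference between the arrays (log2, array labelled Mef2d shRNA minus array labelled lacZ shRNA) against the mean level of both arrays (log2 RMA value), with 1 point per gene. The 67 members (red) lie between -0.28 and 0.30, inside the dashed lines at 1.5-fold, while Mef2d (blue) lies at 0.71.

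The spread of the members' differences was compared with that of other genes. The SD of the 67 differences was 0.13, against 0.20 over the 8447 genes whose mean level lay within the members' range, and the interquartile ranges were 0.18 and 0.22. A difference of at most 0.1 in size was seen for 37 members (55.2%) and for 46.1% of those genes. The 30 cytosolic ribosomal protein genes past the filter had an SD of 0.11 and an interquartile range of 0.14, with 56.7% within 0.1. Their median level was 10.75 on the array labelled Mef2d shRNA, against 8.26 for the members. A narrow spread was thus seen in both groups, but at unlike levels, and the 2 groups were not matched by level. To set each member beside genes of similar level, the genes were sorted into 20 bins by level and the scaled median absolute deviation in each bin served as a robust SD. It lay between 0.11 and 0.19 for the bins that hold members. It is the scatter between 2 arrays, which mixes noise with real differences, and is no replicate error. By that measure 17 members lay more than 1 robust SD from the centre of their bin and 0 more than 2. The same counts were not made over all genes, so they say nothing particular about the members.

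Proteins of the large subunit, which forms peptide bonds, were encoded by 42 members, including Mrps18a and Mrps30, whose proteins sit in the large subunit despite their names. Their median difference was 0.04, with 24 above 0 and 18 below. Among the members with the 10 largest positive differences were 3 proteins of the flexible stalks that handle transfer RNA and recruit translation factors. Mrpl1, of the L1 stalk, had levels of 8.30 on the array labelled Mef2d shRNA and 8.07 on the array labelled lacZ shRNA. Mrpl10, the base of the other stalk, had 9.24 on the array labelled Mef2d shRNA and 9.03 on the array labelled lacZ shRNA. Mrpl12, which forms that stalk and in humans also binds mitochondrial RNA polymerase, had levels of 8.67 and 8.51 on the same arrays. They are no fixed list of stalk proteins, their role was grouped after their values were seen, and all 3 differed by less than 1.2-fold.

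The largest positive differences in the large subunit were those of Mrpl55 and Mrpl15. Mrpl55, the counterpart of bacterial L31, had levels of 7.49 on the array labelled Mef2d shRNA and 7.19 on the array labelled lacZ shRNA, which is 1.23-fold higher. Of all genes past the filter, 710 were at least as much higher. Mrpl15, the counterpart of bacterial L15, had levels of 8.12 on the array labelled Mef2d shRNA and 7.83 on the array labelled lacZ shRNA, or 1.22-fold higher, and 789 genes were at least as much higher. Among proteins with no bacterial counterpart, Mrpl54 had 10.25 on the array labelled Mef2d shRNA and 10.03 on the array labelled lacZ shRNA. Mrpl50 had 6.91 and 6.75, and Mrpl51 had 9.75 and 9.60, in the same order of arrays. Each of these genes had its higher value on the array labelled Mef2d shRNA, and none reached the 1.5-fold threshold.

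At the lower end of the large subunit lay Mrpl20, whose bacterial counterpart L20 takes part in ribosome assembly. It had levels of 7.73 on the array labelled Mef2d shRNA and 7.96 on the array labelled lacZ shRNA (1.18-fold lower), and 1008 genes were at least as much lower. Mrpl44, a protein with a ribonuclease III fold and one of the human cardiomyopathy genes named above, had 6.46 on the array labelled Mef2d shRNA and 6.68 on the array labelled lacZ shRNA. Mrpl3, the other of these, had levels of 7.97 and 8.07 on the same arrays. Their differences were -0.22 and -0.10. Mrpl46 had levels of 7.95 on the array labelled Mef2d shRNA and 8.15 on the array labelled lacZ shRNA, Mrpl53 had 9.07 and 9.25, and Mrpl27, whose bacterial counterpart lies near the peptide bond-forming centre, had 8.36 and 8.51. Mrps30 had 9.58 on the array labelled Mef2d shRNA and 9.73 on the array labelled lacZ shRNA. All of them had their lower value under the Mef2d shRNA label, by less than 1.2-fold. Mrpl45, which in humans anchors the ribosome to the inner membrane at the exit of the nascent chain, had a difference of 0.10.

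Proteins of the small subunit, which holds the messenger RNA and decodes it, were encoded by 24 members. Their median difference was -0.03, with 9 above 0 and 15 below. Mrps17, the counterpart of the rRNA-binding protein S17, was the highest, with levels of 8.67 on the array labelled Mef2d shRNA and 8.42 on the array labelled lacZ shRNA (1.19-fold higher). Mrps23 had 8.06 on the array labelled Mef2d shRNA and 7.90 on the array labelled lacZ shRNA. Mrps10, the counterpart of bacterial S10, was the lowest of all members, with levels of 8.11 on the array labelled Mef2d shRNA and 8.39 on the array labelled lacZ shRNA. It was 1.22-fold lower, and 673 genes were at least as much lower. Mrps14 had 8.04 on the array labelled Mef2d shRNA and 8.21 on the array labelled lacZ shRNA, and Mrps5 had 6.82 and 6.95. Mrps12, whose bacterial counterpart monitors decoding, had a difference of -0.09, and Mrps7, the counterpart of S7, had one of -0.13.

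Of the 9 small subunit members that mitochondria added, 8 lay below 0, between -0.01 and -0.11, and Mrps23 lay above 0 at 0.17. Over all genes past the filter, 48.2% lay above 0. The SD of all 9 differences was 0.08, against 0.13 for the 15 small subunit members with a bacterial counterpart. The 8 were grouped by their sign, after their values were seen, so their narrow range is partly set by that choice. These 8 were Mrps35, Mrps26, Mrps27, Mrps25, Mrps34, Mrps18b, Mrps33 and Mrps31, in order of growing size of the difference. All 8 lay less than 1 robust SD from the centre of their bin. The 15 small subunit members with a bacterial counterpart were split, with 8 above 0, and so were both kinds in the large subunit, with 15 of 26 and 9 of 16 above 0. The class of each protein was assigned from general knowledge of the ribosome, and Mrps21l was classed with Mrps21. Of the Mrps18 genes, Mrps18c was classed as having a bacterial counterpart, and Mrps18a and Mrps18b as added by mitochondria. No test of the difference between the classes was possible.

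**Figure D2:**
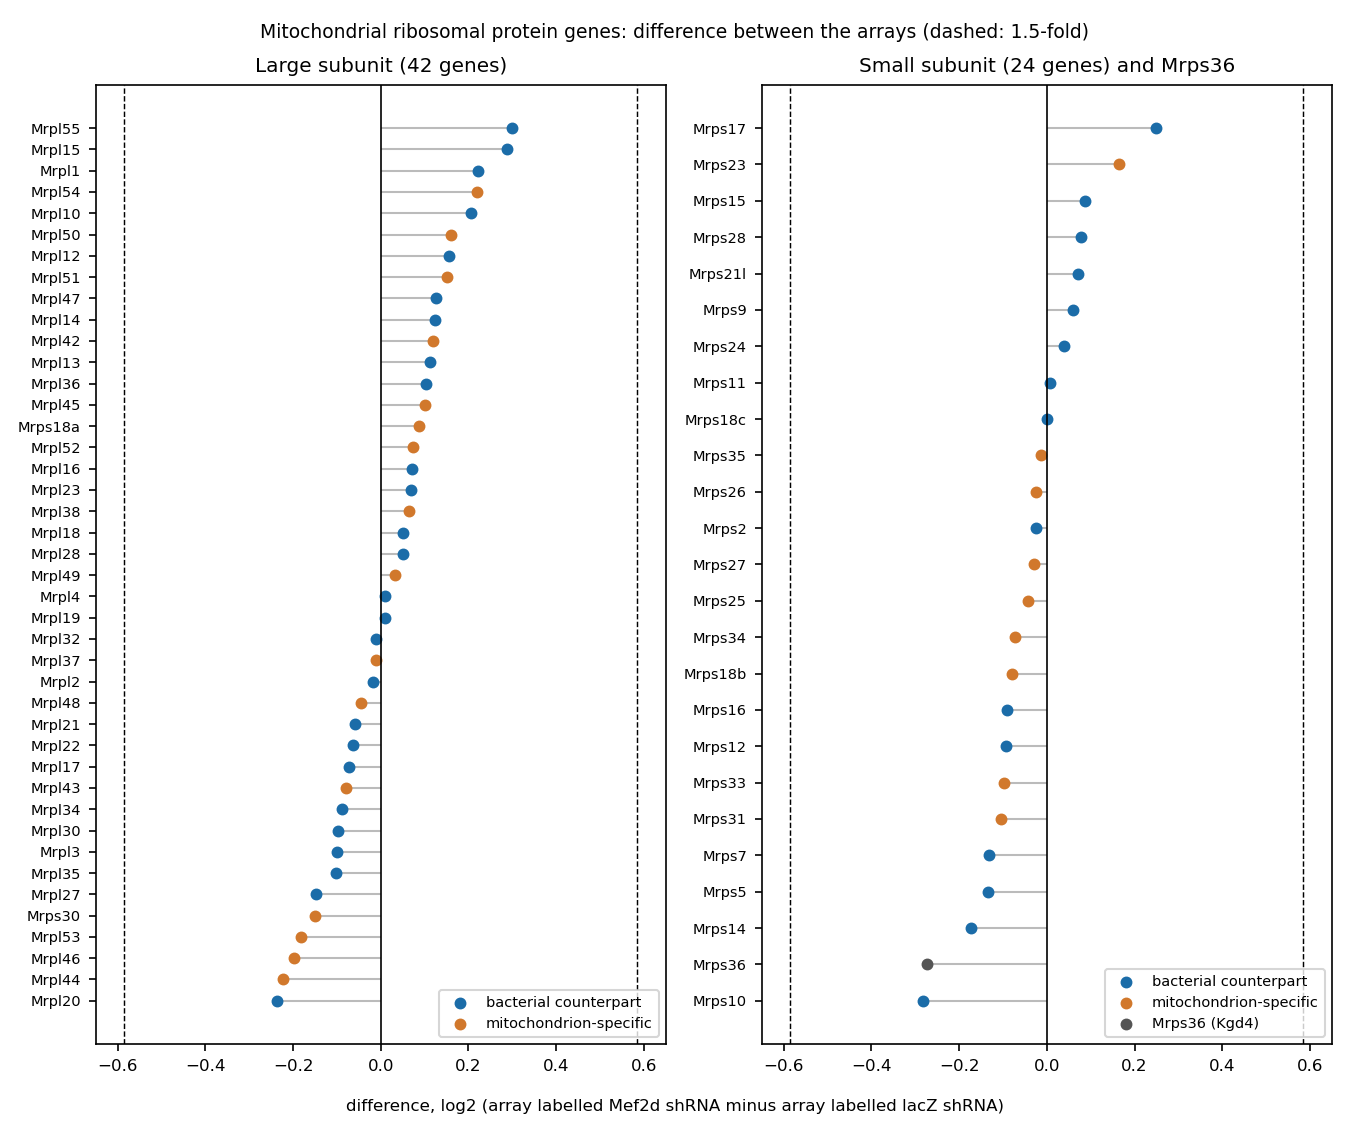
Difference between the arrays (log2, array labelled Mef2d shRNA minus array labelled lacZ shRNA) of each member, by subunit, with colour for proteins with and without a bacterial counterpart. Differences run from -0.24 to 0.30 in the large subunit and from -0.28 to 0.25 in the small subunit, and no gene reaches the dashed lines at 1.5-fold.

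Mrps36 had levels of 8.28 on the array labelled Mef2d shRNA and 8.56 on the array labelled lacZ shRNA, a difference of -0.27 (1.21-fold lower). The reference table names this gene Kgd4, and its protein is now assigned to the 2-oxoglutarate dehydrogenase complex of the citric acid cycle and not to the ribosome. Without it 66 members remained, and their median difference was -0.004. The symbols of the other 66 members are the same in the probe-to-gene table and in the reference table.

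**Figure D3:**
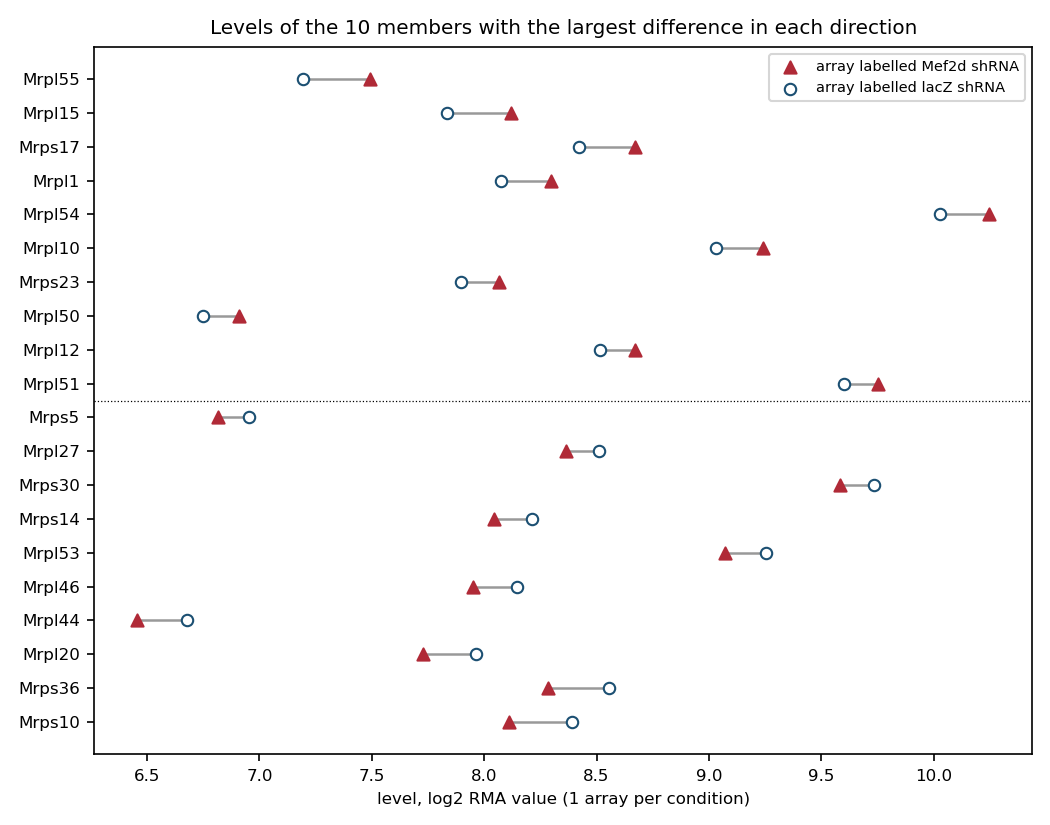
Levels (log2 RMA value) on the array labelled Mef2d shRNA (triangles) and the array labelled lacZ shRNA (circles), 1 array each, for the 10 members with the largest positive difference (above the dotted line) and the 10 with the largest negative difference (below it). The gap between the points of a gene is at most 0.30.

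The other 47 members differed by between -0.13 and 0.13. The signals of different probe sets are not comparable as transcript amounts, but the members with the brightest signal were Mrpl42, with levels of 11.27 on the array labelled Mef2d shRNA and 11.15 on the array labelled lacZ shRNA, Mrpl52, with 10.57 and 10.50, and Mrpl54. The dimmest were Mrpl2, with levels of 6.31 on the array labelled Mef2d shRNA and 6.33 on the array labelled lacZ shRNA, Mrpl44, and Mrpl18, with 6.63 and 6.58. All lay more than 1 log2 unit above the level filter, and none was near it.

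A further 7 genes encode mitochondrial ribosomal proteins under other symbols, and 6 of them lay below 0, with a median of -0.09. Dap3, a GTP-binding protein of the small subunit, had levels of 8.47 on the array labelled Mef2d shRNA and 8.71 on the array labelled lacZ shRNA. The small subunit genes Ptcd3 (-0.13), Aurkaip1 (-0.12) and Chchd1 (-0.09) also lay below 0. In the large subunit, Ict1, which can release stalled peptides, had a difference of -0.08, Mrp63 of -0.03 and Gadd45gip1 of 0.15. Together with the rule's own members, 34 of the 74 genes so collected lay above 0, with a median of -0.01. All 4 small subunit genes among the 7 lay below 0, as did the median of the rule's small subunit members. Ict1 and Mrp63 of the large subunit lay below 0 too, while the median of the rule's large subunit members was 0.04.

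Genes for mitochondrial translation factors and related proteins, among them Oxa1l and Pde12, were a list of their own. Of 12 measured translation factor and related genes, 9 lay above 0, and the median was 0.20, against -0.01 for the 67 members. Tufm, the elongation factor that delivers transfer RNA, had levels of 9.16 on the array labelled Mef2d shRNA and 8.77 on the array labelled lacZ shRNA. Mrrf, the ribosome recycling factor, had 7.77 on the array labelled Mef2d shRNA and 7.41 on the array labelled lacZ shRNA. Gfm2, which works in ribosome recycling, differed by 0.30. The lowest were Gfm1, the elongation factor for translocation, at -0.09, and Mtfmt, which formylates the initiator transfer RNA, at -0.08. None of the 12 reached 1.5-fold, 4 were at least 1.2-fold higher and 0 were as much lower. Over all genes past the filter, 8.15% were at least 1.2-fold higher, 6.91% as much lower, and 48.2% lay above 0. The difference between these lists could not be tested with 1 array per condition.

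The other lists of mitochondrial gene expression had medians close to 0. Over 18 genes for mitochondrial transfer RNA charging the median was 0.02, with 10 above 0. Hars2 (0.40) and Iars2 (0.34) were highest, and Tars2 (-0.21) and Lars2 (-0.14) lowest. Over 22 genes of ribosome assembly and ribosomal RNA modification the median was 0.05, with 14 above 0. The pseudouridine synthase family gene Rpusd3 (0.48) and Malsu1 (0.25), a large subunit assembly factor, were highest, and Gtpbp10 (-0.21) and Fastkd2 (-0.17) lowest. None of the genes in these 2 lists reached 1.5-fold.

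Among 14 genes of mitochondrial DNA transcription and upkeep the median was 0.06, with 8 above 0, and the spread was wider. Tfb2m, a transcription initiation factor, had levels of 8.08 on the array labelled Mef2d shRNA and 7.54 on the array labelled lacZ shRNA, a difference of 0.54, and Top1mt had one of 0.29. Ssbp1, the mitochondrial single-stranded DNA binding protein, had 8.27 on the array labelled Mef2d shRNA and 8.63 on the array labelled lacZ shRNA. Mgme1, a nuclease of mitochondrial DNA replication, had a difference of -0.52 with 4.59 under the Mef2d shRNA label, below the level filter, against 5.11 under the lacZ shRNA label. Tfam, which packages mitochondrial DNA, differed by 0.11. Again none reached 1.5-fold in either direction.

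The respiratory chain subunits, some of whose partners this ribosome makes, had a median of 0.01 over 27 nuclear genes, with 17 above 0. Ndufs3 (0.60), a complex I subunit, was the 1 gene of them past 1.5-fold, followed by Ndufs1 (0.32), while Atp5f1a (-0.12) and Sdha (-0.11) were lowest. Import and protein quality genes had a median of 0.00 over 15 genes, from Tomm40 (0.21) and Spg7 (0.19) to Tomm70 (-0.23) and Tomm22 (-0.21). The 12 regulators of mitochondrial biogenesis were split evenly, with 6 above 0 and 6 below. In that list Perm1 (0.50) and Ppargc1a (0.31), the coactivator PGC-1alpha, were highest and Myc (-0.32) and Gabpb1 (-0.27) lowest. Over the 30 cytosolic ribosomal protein genes past the filter the median was -0.01, with 15 above 0 and none past 1.5-fold.

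**Figure D4:**
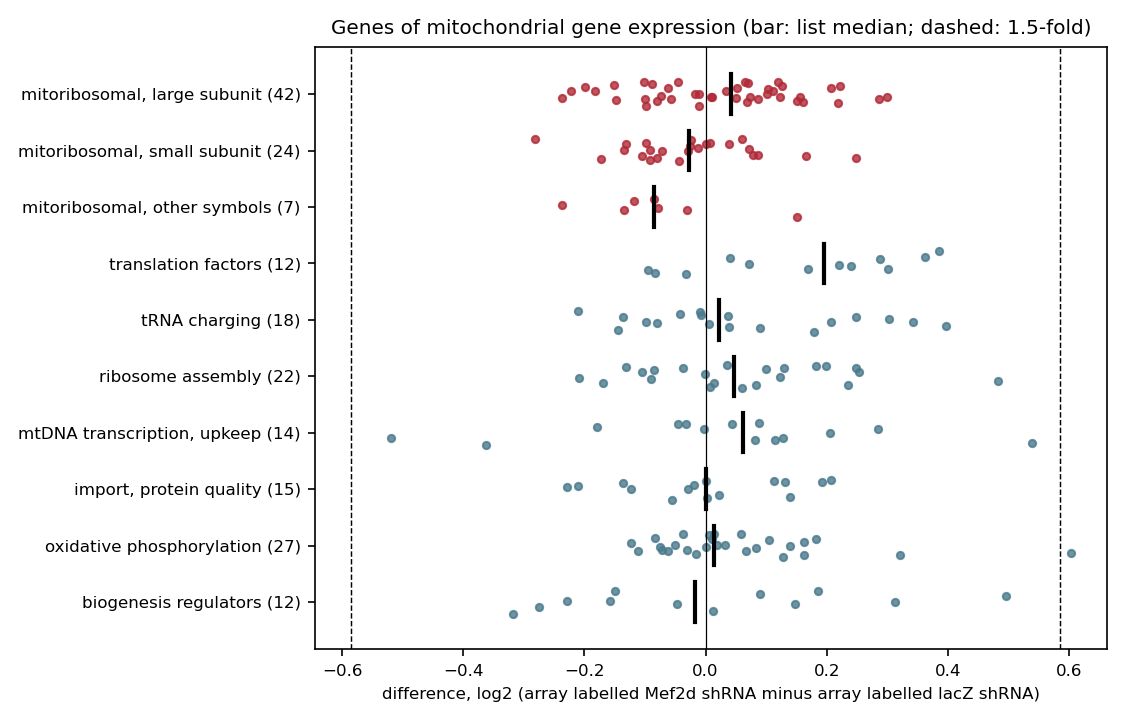
Difference between the arrays (log2, array labelled Mef2d shRNA minus array labelled lacZ shRNA) for the members by subunit (red, with the genes of other symbols) and for lists of mitochondrial gene expression (blue), with 1 point per gene past the level filter, the number of genes in brackets and black bars at the list medians. The medians of the large and small subunits are 0.04 and -0.03, and that of the translation factors and related genes is 0.20.

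Many members start head to head with another gene. Of the 53 members with a promoter window, 15 (28.3%) had the start of another protein-coding gene on the opposite strand within 1000 bases upstream, with up to 50 bases of overlap of the starts allowed. The share was 10.5% over 9602 array genes past the level filter and 7.17% over all 19005 protein-coding genes with a window. The neighbours include Tcp1, a cytosolic chaperonin subunit, Psma2, a proteasome subunit, Ncapd2, a condensin subunit, Fau, which encodes a fusion of a ubiquitin-like protein and a cytosolic ribosomal protein, and Ndufb5, a complex I subunit. One pair joins members of both ribosomal subunits, Mrpl46 and Mrps11. The bases between the starts of these genes are shown, in the direction of Mrps11, because both genes are members. Capitals mark the TATAAA letters, the only match of the 5 motifs between the starts.
Mrps11 and Mrpl46 (chr1:142117031-142117263, plus strand): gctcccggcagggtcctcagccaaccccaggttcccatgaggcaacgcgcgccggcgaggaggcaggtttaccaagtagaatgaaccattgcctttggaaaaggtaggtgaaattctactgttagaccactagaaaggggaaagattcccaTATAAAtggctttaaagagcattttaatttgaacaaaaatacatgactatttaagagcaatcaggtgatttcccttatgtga

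Across this shared stretch Mrps11 had levels of 8.02 on the array labelled Mef2d shRNA and 8.01 on the array labelled lacZ shRNA, while Mrpl46 had 7.95 and 8.15 on the same arrays. Over the 12 pairs in which both genes passed the level filter, 4 had differences of the same sign and 8 of opposite sign, though some of these signs rest on values at or near 0. Mrpl51 had levels of 9.75 on the array labelled Mef2d shRNA and 9.60 on the array labelled lacZ shRNA, and its neighbour Ncapd2 had 6.61 and 6.69. Mrpl47 had 8.09 on the array labelled Mef2d shRNA and 7.96 on the array labelled lacZ shRNA, and its neighbour Ndufb5 had 11.06 and 11.09. Both genes of a pair lay below 0 for Mrpl30 (-0.10) and Mitd1 (-0.16), and for Mrpl2 (-0.02) and Klc4 (-0.21). Over these 12 pairs no neighbour reached 1.5-fold, and the neighbours' differences ran from -0.21 to 0.10.

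**Figure D5:**
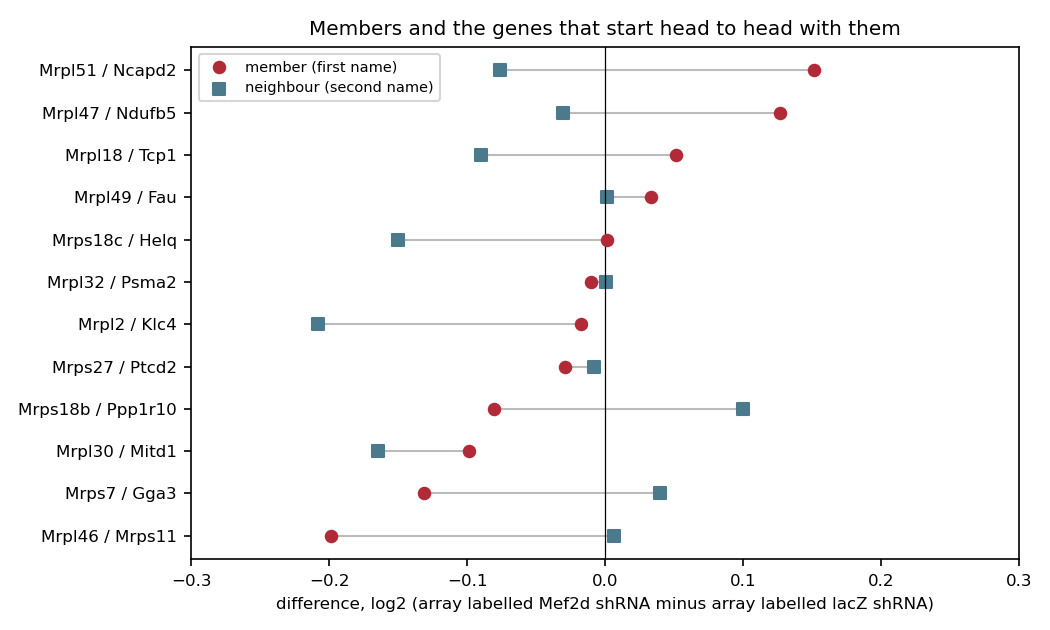
Difference between the arrays (log2, array labelled Mef2d shRNA minus array labelled lacZ shRNA) of members (circles) and of the genes that start head to head with them (squares), for the 12 pairs with both genes past the level filter. In 8 of the 12 pairs the signs differ, and all points lie between -0.21 and 0.15.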

How the data were processed

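RNA of neonatal rat ventricular myocytes was hybridised, after biotin labelling, to 2 one-colour Affymetrix arrays. The authors deposited log2 values, for which the submitters' processing notes list RMA and affy 1.36.1. Neither a probe set definition nor a genome build is given in the sources used here. RMA carries no detection call and compresses the differences of dim probe sets. The table holds 19239 probe sets, 16592 of them with a symbol and 2647 unnamed here. Both value columns were used.

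Differences are log2 values under the Mef2d shRNA label minus those under the lacZ shRNA label. Named genes with a mean level under the 30th percentile (4.85) were left out, which removed 4978. A gene counts as higher or lower at 1.5-fold (0.58 on the log2 scale) or more. With 1 array per condition no test was made. The fold calls and the robust SD of the bins were tested on simulated data with planted 2-fold changes, larger than any member's difference. The other steps were not tested in this way.

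The members, lists and thresholds were chosen with earlier results of these data known. Every member could be named. Both levels were given for the 10 members at each end of the differences and the 3 brightest and 3 dimmest, and in each list of mitochondrial gene expression the 2 genes at each end were named. Genes named outside this rule were chosen for their known role or after their values were seen. Lists were matched by symbol or by gene ID in the reference table (assembly GRCr8). Promoters came from RefSeq, using the first listed start of a gene. No window was used for Mrpl13, Mrpl15, Mrpl16, Mrpl19, Mrpl21, Mrpl35, Mrpl38, Mrpl43, Mrps12, Mrps21l, Mrps24, Mrps28, Mrps34 and Mrps35. The software was Python 3.11.15 with numpy 2.4.6, pandas 2.3.3 and statsmodels 0.14.6. Alternatives covered scaling, the level filter, the threshold, means for medians, and the member rule.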

Additional observations from a re-analysis of the deposited data

How the results depend on the processing

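The median difference of the members lay between -0.015 and 0.002 under the alternatives run for it. Under the other scalings and level filters and with means, that of the large subunit lay between 0.02 and 0.05 and that of the small subunit between -0.04 and -0.01. With the mitoribosomal genes of other symbols added, an alternative for the subunits chosen after seeing the data, these medians were 0.03 and -0.06. No member reached 1.5-fold under the 3 other scalings, the 2 other level filters or the 3 other member rules, and none reached 1.3-fold or 2-fold. At 1.2-fold, 2 members were higher and 2 lower, as given above. Under at least 1 of the other scalings 5 members changed sign, and the largest of their reported differences was 0.01 in size. No replicate could be left out. No paired analysis was possible because there is a single array per condition. Protein sequences were not used here. RMA gives no detection call, so how far low signal limits the dimmest members is unknown.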

Other observations

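A pair of mitoribosomal genes carried no symbol in the probe-to-gene table and were named only through the gene ID. Mrps6 had levels of 8.59 on the array labelled Mef2d shRNA and 8.64 on the array labelled lacZ shRNA (difference -0.05). Mrpl33 had 9.34 on the array labelled Mef2d shRNA and 9.23 on the array labelled lacZ shRNA (difference 0.10). Both lay inside the range of the 67 members. Of 78 Mrpl and Mrps symbols listed for the classes, 12 were not among the members by exact symbol. Among the 12 is Mrps21, with which the member Mrps21l was classed. Mrps6 and Mrpl33 were the only ones of the 12 found among probe sets without a symbol. The members thus do not cover the whole ribosome.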
